A study of Mus musculus with 6 samples.

Results

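The genes of SR proteins and of the kinases that phosphorylate them were followed in the bulk RNA-Seq libraries of the E13.5 mouse cardiac outflow tract (OFT). The set held 7 *Srsf* genes (*Srsf1*, *Srsf2*, *Srsf3*, *Srsf5*, *Srsf6*, *Srsf7*, *Srsf11*) and 3 *Clk* genes (*Clk1*, *Clk2*, *Clk4*). They were chosen by symbol as genes known to make nuclear transcripts that keep introns. The choice was made with earlier results of these data known, so counts over the set describe it and test nothing. Each symbol matched 1 row of the count table, so 10 of the 28777 genes listed were members, and all 10 passed the filter on low counts. The study asked which genes differ in expression in an OFT that goes on to form malformed valves and septa. There were 3 libraries labelled mutant, of embryos with the genotype *Notch1*-het; *Nos3*-null, and 3 libraries labelled wildtype, of their *Notch1*+/+; *Nos3*+/+ littermates. Both alleles are germline, so every cell of the mutant OFT carries them. Each library pooled 3 OFTs, cut below the conal cushions, and the text names the library labels because *Notch1* did not follow them (given below with its values).

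SR proteins bind exons through RNA recognition motifs and recruit the spliceosome through a tail rich in arginine and serine. The CLK kinases phosphorylate that tail in the nucleus, which releases SR proteins from nuclear speckles. Many genes of both families regulate themselves by splicing: part of their RNA keeps an intron and stays in the nucleus, or takes in a poison exon with an early stop codon and is degraded. RNA that keeps an intron can be spliced later, after heat shock or when CLK activity is low. The libraries were made from total RNA depleted of ribosomal RNA, and not from poly(A)-selected RNA, so nuclear RNA is part of what was counted. The deposited values are reads per gene, which do not separate isoforms.

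The 3 *Clk* genes had the 3 largest log2 fold changes of the set (0.40 to 0.42), with all 3 libraries labelled mutant above all 3 labelled wildtype. *Srsf5*, *Srsf6* and *Srsf11* had smaller positive log2 fold changes with overlapping groups. *Srsf1*, *Srsf2*, *Srsf3* and *Srsf7* had log2 fold changes near 0. None of the 10 genes was called (0 by the quasi-likelihood test of edgeR, at 0.05 after Benjamini-Hochberg adjustment over all genes), where 0.0213% of all 28157 genes tested were called. At an unadjusted p under 0.05 there were 5 of the 10, all higher under the mutant label, and 8.23% of all genes tested were higher at that level.

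*Clk1* (ENSMUSG00000026034), on the minus strand of mm10 at chr1:58410189-58424066, encodes a dual-specificity kinase of 483 residues. *Clk2* (ENSMUSG00000068917) lies on the plus strand at chr3:89164795-89176921 and encodes 500 residues. *Clk4* (ENSMUSG00000020385), the closest paralog of *Clk1*, lies on the plus strand at chr11:51261730-51281766 and encodes 481 residues. In the GENCODE M21 annotation 7 of 13 *Clk1* transcripts, 4 of 11 *Clk2* transcripts and 7 of 14 *Clk4* transcripts are of the retained intron type. The introns on both sides of exon 4 are kept whole in at least 1 annotated transcript of each gene. Exon 4 is shown because it is the exon that known *Clk* isoforms skip. It has 91 bases in *Clk1* and *Clk4* and 88 in *Clk2*, each 1 base more than a multiple of 3, so a transcript without it changes reading frame. These are the exon 4 sequences in the sense of the gene, from the GENCODE M21 transcripts.
Clk1 exon 4: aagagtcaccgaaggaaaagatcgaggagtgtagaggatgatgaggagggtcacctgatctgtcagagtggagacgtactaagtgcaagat
Clk4 exon 4: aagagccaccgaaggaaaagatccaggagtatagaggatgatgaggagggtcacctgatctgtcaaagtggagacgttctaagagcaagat
Clk2 exon 4: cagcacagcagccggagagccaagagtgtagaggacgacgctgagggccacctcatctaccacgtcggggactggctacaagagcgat
*Clk1* and *Clk4* share 85 of the 91 bases of this exon.

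Intron 4, which follows exon 4, lies at chr1:58419734-58420120 on the minus strand in *Clk1* (387 bases), at chr11:51273169-51273559 on the plus strand in *Clk4* (391 bases) and at chr3:89169703-89170048 on the plus strand in *Clk2* (346 bases). Its start is shown because it is the 5' splice site of an intron that these genes keep. Lower case marks the last 10 bases of exon 4 and capitals the first 20 bases of the intron.
Clk1 intron 4 start: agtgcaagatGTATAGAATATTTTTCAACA
Clk4 intron 4 start: agagcaagatGTATAGAATATTTTTCAACA
Clk2 intron 4 start: caagagcgatGTACAAGCCAAATCGTAACA
The first 20 bases of the intron were identical in *Clk1* and *Clk4* (20 of 20), and 10 of the 20 were shared by *Clk2* with either gene. At its other end the intron differs more, with 14 of the last 30 bases shared by *Clk1* and *Clk4*. The 3' splice sites follow, with the last 30 intron bases in capitals and the first 10 bases of exon 5 in lower case.
Clk1 intron 4 end: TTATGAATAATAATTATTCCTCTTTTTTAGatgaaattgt
Clk4 intron 4 end: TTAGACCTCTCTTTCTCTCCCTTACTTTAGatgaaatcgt
Clk2 intron 4 end: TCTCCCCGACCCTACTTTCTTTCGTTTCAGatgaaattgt
Intron 3, before exon 4, has 871 bases in *Clk1* (chr1:58420212-58421082), 1055 in *Clk4* (chr11:51272023-51273077) and 691 in *Clk2* (chr3:89168924-89169614). Its starts are given in the same form, for comparison with those of intron 4.
Clk1 intron 3 start: ttcacacgggGTATGAGTGCCTTTTAAACG
Clk4 intron 3 start: gtcgcattcgGTATGAGTGGTTTGTTTTTA
Clk2 intron 3 start: ctcatcttcaGTGAGTGCCAGCCCAGCCTT
Here *Clk1* and *Clk4* share 12 of the first 20 intron bases, and *Clk2* shares 4 with *Clk1* and 5 with *Clk4*. Each of these introns begins with GT and ends with AG. The share of G and C was 26.4% in intron 4 of *Clk1*, 34.0% in that of *Clk4* and 51.7% in that of *Clk2*.

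*Clk1* was read at 96.7, 87.5 and 80.8 CPM in wildtype replicates 1, 2 and 3, where CPM are counts scaled to a common library size by edgeR's TMM method. It had 112, 122 and 121 CPM in mutant replicates 1, 2 and 3. The lowest library labelled mutant was 1.16 times the highest labelled wildtype, so the groups did not overlap. The means were 88.3 ± 7.99 CPM (SD, n = 3) in wildtype and 118 ± 5.56 CPM (SD, n = 3) in mutant, a log2 fold change of 0.42 (standard error 0.10, 95% interval 0.20 to 0.64) or 33.9% more. The edgeR adjusted p was 0.181.

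*Clk2* had 36.9, 35.4 and 33.8 CPM in the wildtype libraries and 47.2, 49.8 and 44.0 CPM in those labelled mutant. Its wildtype libraries lay close together, with a mean of 35.4 ± 1.53 CPM (SD, n = 3) against 47.0 ± 2.92 CPM (SD, n = 3), and the lowest mutant library was 1.19 times the highest wildtype one. The log2 fold change was 0.41 (standard error 0.09, 95% interval 0.20 to 0.62), or 32.9% more, with an edgeR adjusted p of 0.181. *Clk4* had 42.0, 40.4 and 33.0 CPM in wildtype and 48.3, 51.3 and 52.7 CPM in mutant libraries. Wildtype replicate 3 was the lowest, and no mutant library reached down to the wildtype range. Its means were 38.5 ± 4.83 CPM (SD, n = 3) and 50.8 ± 2.26 CPM (SD, n = 3), a log2 fold change of 0.40 (standard error 0.11, 95% interval 0.16 to 0.64), or 31.9% more, with an edgeR adjusted p of 0.194. By DESeq2's Wald test the adjusted p was 0.0151 for *Clk1*, 0.0182 for *Clk2* and 0.0485 for *Clk4*. All 3 were called there, where 1.46% of all genes were called as higher. The study also used DESeq2, on these same libraries, and reported *Clk1* as differentially expressed, so its call is not independent of the one here. It lists *CLK1* as a gene with *de novo* variants in tetralogy of Fallot. Groups that do not overlap, with mutant higher, were found for 10.7% of all genes tested and for 9.95% of the 11286 genes averaging 10 CPM or more.

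Ratios between the kinases within a library do not depend on scaling. The *Clk1* to *Clk2* ratio of CPM was 2.62, 2.47 and 2.39 in wildtype and 2.37, 2.44 and 2.76 in mutant libraries. The groups overlapped, and log2 of the ratio differed by 0.014 (two-sided exact permutation test, p = 0.9, where 3 against 3 allows no p under 0.1). For *Clk4* to *Clk2* the ratios were 1.14, 1.14 and 0.975 in wildtype and 1.02, 1.03 and 1.2 in mutant libraries, a difference of −0.003 in log2 (two-sided exact permutation test, p = 1.0). These p-values do not show that the ratios were equal.

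**Figure D1:**
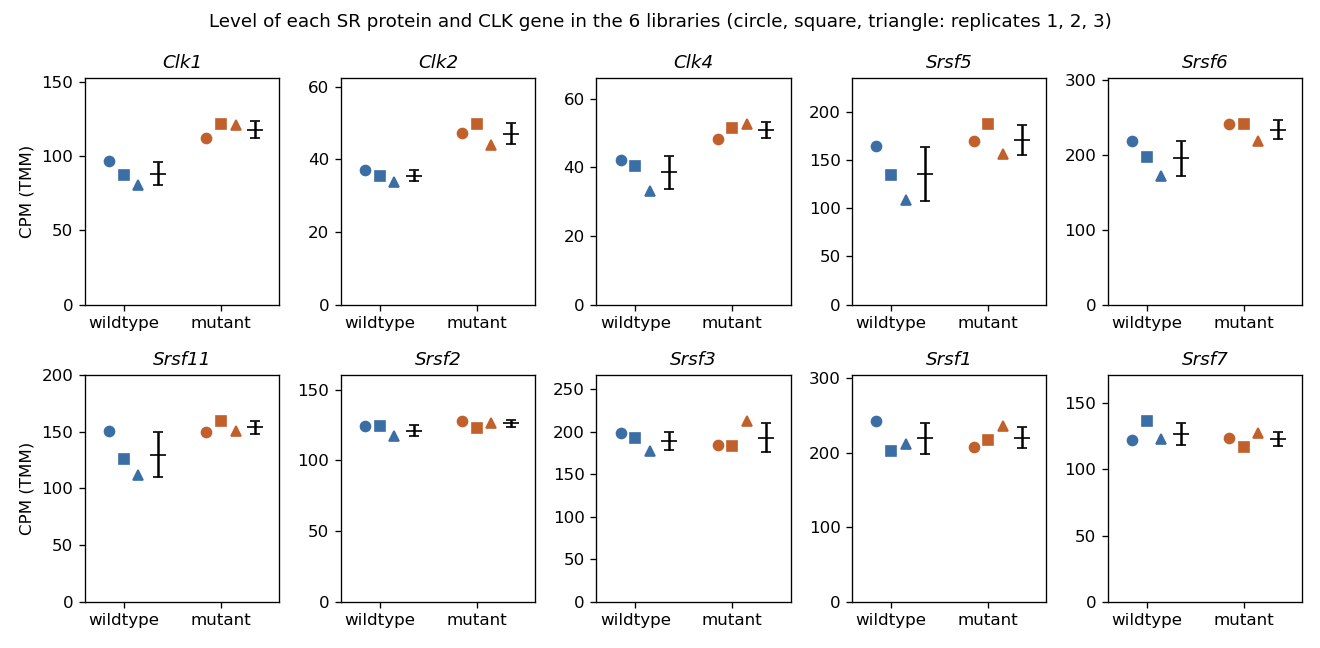
Level of each gene in CPM (TMM-normalized, linear axis from 0) in the 3 libraries labelled wildtype (blue) and the 3 labelled mutant (orange). Symbols give replicates 1, 2 and 3, and black bars give the mean and SD of each group. For *Clk1*, *Clk2* and *Clk4* all mutant points lie above all wildtype points, and for the 7 *Srsf* genes the groups overlap.

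*Srsf5* (ENSMUSG00000021134, chr12:80945504-80950507), *Srsf6* (ENSMUSG00000016921, chr2:162931528-162937121) and *Srsf11* (ENSMUSG00000055436, chr3:158010473-158036639) formed the middle of the set. *Srsf5* and *Srsf6* are SR proteins with a pair of RNA recognition motifs. *Srsf11* binds RNA with a single such motif and contacts the U2 auxiliary factor. *Srsf5* had 165, 135 and 109 CPM in the wildtype libraries and 170, 188 and 156 CPM in those labelled mutant. Wildtype replicate 1 lay inside the mutant range, and replicate 3 well below it. Its log2 fold change was 0.33 (standard error 0.14, 95% interval 0.01 to 0.65, edgeR adjusted p = 0.296), on means of 136 ± 28.0 and 171 ± 15.6 CPM (SD, n = 3 each). Within groups *Srsf5* varied more than the other members, with an SD of 0.23 in log2 CPM, above that of 85.6% of the genes averaging 10 CPM or more.

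*Srsf6* had 219, 197 and 172 CPM in wildtype and 242, 242 and 219 CPM in mutant libraries. The groups met at wildtype replicate 1 and mutant replicate 3, on means of 196 ± 23.4 and 234 ± 13.2 CPM (SD, n = 3 each). The log2 fold change was 0.26 (standard error 0.11, 95% interval 0.01 to 0.50, edgeR adjusted p = 0.296). *Srsf11* had 151, 126 and 112 CPM in wildtype and 150, 160 and 151 CPM in mutant libraries, so that wildtype replicate 1 was as high as mutant replicates 1 and 3. Its means were 130 ± 19.6 and 154 ± 5.63 CPM (SD, n = 3 each). Its log2 fold change was 0.25 (standard error 0.12, 95% interval −0.01 to 0.50, edgeR adjusted p = 0.33).

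*Srsf5* has 4 of its 6 coding introns kept whole in annotated transcripts, the largest share of the set. The starts of these introns are shown as those of the most intron-retaining *Srsf* gene by this count, in the sense of the gene, with 10 exon bases in lower case and 20 intron bases in capitals.
Srsf5 intron 3 start: tggttttgtgGTAAGTACTTGAAACTGAGT
Srsf5 intron 5 start: atgatagacgGTATGTGGTTTGGGTTTGGC
Srsf5 intron 6 start: cagctggcagGTTTGTTGAAATACAGTTTT
Srsf5 intron 8 start: aaaggcacagGTACTCTTTCGTTTATATTT
They lie on the plus strand at chr12:80946721-80947310, chr12:80947595-80947795, chr12:80947866-80949094 and chr12:80949605-80949716. *Srsf6* has 1 such intron of 5, of 1283 bases, and *Srsf11* none of 12 (0) by this count, which asks for the whole intron with 10 bases of both flanking exons, although 11 of its 19 transcripts are of the retained intron type.

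The other 4 SR genes had log2 fold changes between −0.04 and 0.05. *Srsf1* (ENSMUSG00000018379, chr11:88047373-88053755), an SR protein that selects 5' splice sites, had 243, 202 and 212 CPM in wildtype and 208, 217 and 236 CPM in mutant libraries. Its highest and lowest libraries were both wildtype, and the log2 fold change was 0.007 (95% interval −0.23 to 0.24, edgeR adjusted p = 0.986). *Srsf2* (ENSMUSG00000034120, chr11:116849901-116853094), which activates exons through enhancers within them, had 124, 124 and 117 CPM in wildtype and 128, 123 and 126 CPM in mutant libraries. It was the steadiest member, with a within-group SD of 0.04 in log2 CPM, and its log2 fold change was 0.05 (95% interval −0.15 to 0.24, edgeR adjusted p = 0.825). *Srsf3* (ENSMUSG00000071172, chr17:29032628-29043373), the shortest protein of the set at 164 residues and an adaptor for mRNA export, had 198, 192 and 177 CPM in wildtype and 184, 183 and 213 CPM in mutant libraries. Mutant replicate 3 was the highest of the 6, and the log2 fold change was 0.03 (95% interval −0.20 to 0.26, edgeR adjusted p = 0.916). *Srsf7* (ENSMUSG00000024097, chr17:80200080-80207307), another export adaptor, had 122, 137 and 123 CPM in wildtype and 124, 117 and 128 CPM in mutant libraries. Its log2 fold change of −0.04 (95% interval −0.25 to 0.16, edgeR adjusted p = 0.856) was the only negative one of the 10. The intervals of these 4 genes reach from −0.25 at the lowest to 0.26 at the highest, so the fits leave room for a fall or a rise of that size. For *Srsf2*, 288 exonic bases are shared with *Mfsd11* and 460 with *Mettl23*, both on the opposite strand, and whether the counting used the strand is not given in the sources used here.

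A kept intron of 3 of these genes is shown in the form used above, *Srsf1* and *Srsf3* from the plus strand and *Srsf7* from the minus strand.
Srsf1 intron 4 start: tctcgctctcGTACATAAGATGATTGGTGA
Srsf3 intron 3 start: ctcggcgcagGTACTTGAGAGAGCACCTTT
Srsf7 intron 3 start: gaagaagcagGTATTTAATTAATGAAGGAA
They lie at chr11:88049599-88049976, chr17:29038625-29040774 and chr17:80204388-80205261. *Srsf3* keeps 2 of its 4 coding introns in annotated transcripts, *Srsf1* 1 of 4, *Srsf7* 1 of 7 and *Srsf2* 0 of 1.

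**Figure D2:**
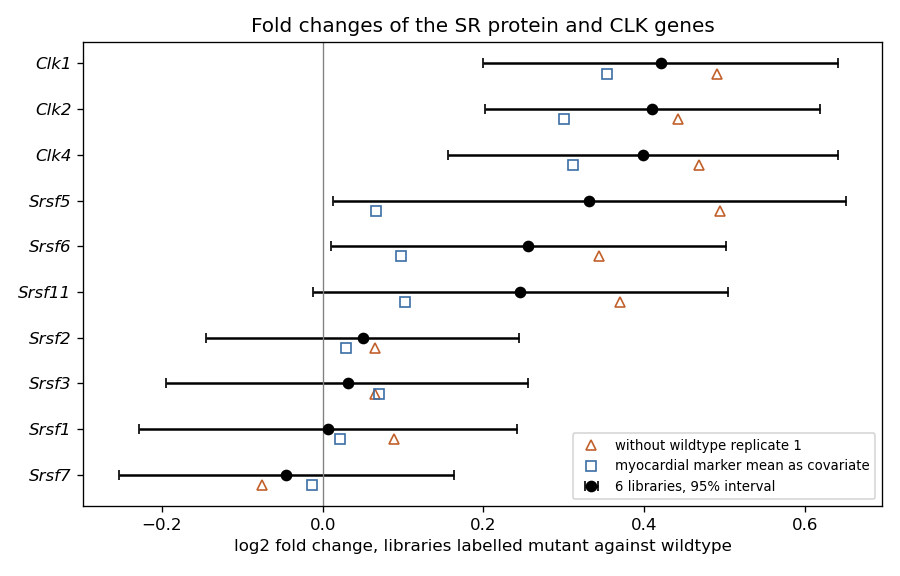
Log2 fold change of each gene, libraries labelled mutant against wildtype, from edgeR (black points with 95% intervals), with the estimate without wildtype replicate 1 (orange triangles) and with the mean of myocardial markers as a covariate (blue squares). The intervals of the 3 *Clk* genes, *Srsf5* and *Srsf6* lie above 0, and the squares of *Srsf5*, *Srsf6* and *Srsf11* lie between 0.07 and 0.10.

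Per kilobase of exon the *Srsf* genes were above the kinases. In wildtype libraries *Srsf2* had 41.1 CPM per kb, *Srsf6* 40.7, *Srsf1* 38.4, *Srsf7* 35.8, *Srsf5* 34.1, *Srsf3* 23.9 and *Srsf11* 15.3 CPM per kb. The kinases had 10.9 CPM per kb for *Clk1*, 6.67 for *Clk2* and 6.64 for *Clk4*. Neighbours in this order among the first 5, and *Clk2* and *Clk4*, lie within their SDs, while *Srsf3*, *Srsf11* and *Clk1* stand apart from theirs. All exons of the annotation enter the length, so a gene with long kept introns has a low level per kb. Of exonic bases, 63.8% of *Clk1*, 59.8% of *Clk4*, 59.2% of *Srsf3*, 58.0% of *Srsf11* and 54.8% of *Clk2* lie only in transcripts of the retained intron type. This share was 37.9% for *Srsf5*, 29.5% for *Srsf2*, 21.1% for *Srsf6*, 14.3% for *Srsf7* and 2.66% for *Srsf1*. The kinases had shares of 54.8% to 63.8% and log2 fold changes of 0.40 to 0.42. At shares of 59.2% and 58.0%, *Srsf3* and *Srsf11* had log2 fold changes of 0.03 and 0.25. *Srsf5* had 0.33 at a share of 37.9%. A link between share and fold change among the members was not tested.

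Across all protein-coding genes averaging 10 CPM or more, the median fold change did not rise with that share. The median log2 fold change was −0.04 in the 3624 genes with no such bases, 0.007 in the 3262 genes with up to 25%, −0.0 in the 2045 genes from 25% to 50% and −0.05 in the 849 genes above 50%. The groups did not overlap, with mutant higher, for 8.03%, 13.0%, 13.1% and 12.5% of the genes in these classes.

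Over the set, 9 of the 10 log2 fold changes were positive, where 41.8% of the genes averaging 10 CPM or more had a positive one. The members were chosen with earlier results known, so this tally is not free of selection. The median was 0.25 for the 10 members, 0.41 for the *Clk* and 0.05 for the *Srsf* genes, beside 0.01 for all genes tested and −0.05 for those averaging 10 CPM or more. The libraries were not alike within the wildtype label. Wildtype replicate 1 was the highest wildtype library for 9 of the 10 members, and 40.7% of the genes averaging 10 CPM or more had their highest wildtype value there. Wildtype replicate 3 was the lowest for 8 of the 10. The mean deviation of the 10 genes from their own means, in log2 CPM, was 0.01, −0.10 and −0.24 in wildtype replicates 1, 2 and 3, and 0.08, 0.13 and 0.11 in mutant replicates 1, 2 and 3. For the *Clk* genes it was −0.10, −0.18 and −0.34 in wildtype and 0.16, 0.25 and 0.20 in mutant libraries. For the *Srsf* genes it was 0.06, −0.06 and −0.20 in wildtype and 0.05, 0.07 and 0.07 in mutant libraries, so that wildtype replicate 1 lay among the mutant libraries.

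**Figure D3:**
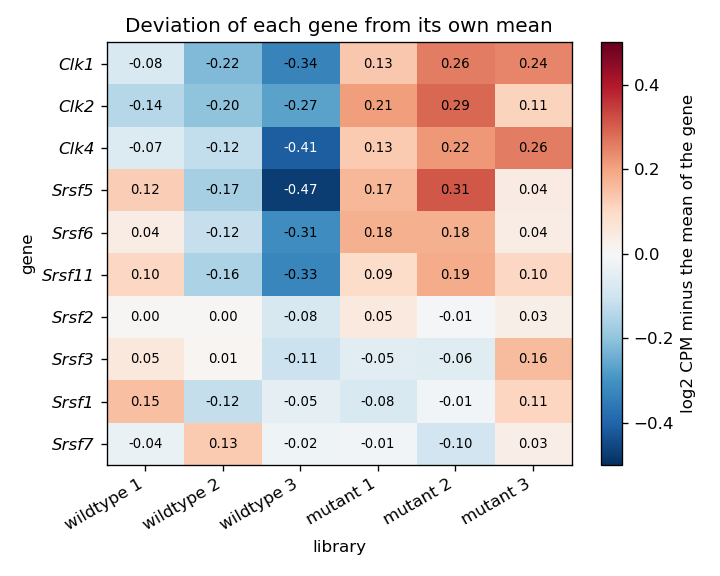
Deviation of log2 CPM (plus 0.5) from the mean of the gene over the 6 libraries, for each gene (rows) and library (columns), with the value printed in each cell. The 3 *Clk* rows are negative in every wildtype column and positive in every mutant column, and wildtype replicate 3 is the lowest column of the *Clk* genes and of *Srsf5*, *Srsf6* and *Srsf11*.

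Leaving out wildtype replicate 1 brought 6 of the 10 genes past the threshold, the 3 *Clk* genes, *Srsf5*, *Srsf6* and *Srsf11*, all higher, where 4.15% of the genes tested in that fit were called higher. In that fit the log2 fold change was 0.49 for *Clk1*, 0.44 for *Clk2*, 0.47 for *Clk4*, 0.49 for *Srsf5*, 0.34 for *Srsf6* and 0.37 for *Srsf11*. The edgeR adjusted p ran from 0.0189 for *Clk1* to 0.0455 for *Srsf6*. None was called (0) in the fits that left out any of the other 5 libraries. Without wildtype replicate 3 the log2 fold change was 0.36 for *Clk1*, 0.38 for *Clk2*, 0.30 for *Clk4*, 0.20 for *Srsf5*, 0.17 for *Srsf6* and 0.15 for *Srsf11*, and the smallest edgeR adjusted p of these was 0.447.

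The members moved with each other to different degrees. Over the 6 libraries, a measure that includes the difference between the groups, the highest Pearson r was 0.98, for *Srsf5* with *Srsf11*, and the lowest was −0.45, for *Srsf7* with *Clk2*. The genes whose pattern was most like the mean of the members, of 11276 compared over the 6 libraries, were *Fubp1* (r = 0.9986), *Snrnp48* (0.998), *Ccnt2* (0.9966), *Gnb4* (0.9955) and *Rufy2* (0.9947). *Khdc4* (r = 0.9954), *Ythdf1* (0.9919) and *Gata5* (0.9903) were most like *Clk1*. With so many genes compared over 6 libraries, such values are a description of likeness in these libraries.

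Markers of several cell types also differed between the labels. All 10 myocardial markers (such as *Tnnt2* and *Myh6*) had negative log2 fold changes, 0 of them called by edgeR and 5 by DESeq2, with a median log2 fold change of −0.52 and summed levels of 23500 to 33400 CPM in wildtype and 16200 to 23100 CPM in mutant libraries. All 7 mesenchymal markers had positive ones, with a median of 0.59, at 4070 to 7950 CPM in wildtype and 7370 to 9440 CPM in mutant libraries. The 6 blood markers had a median of −0.56, at 4210 to 10200 CPM in wildtype and 5100 to 5380 CPM in mutant libraries, and 5 liver markers summed to 1.33, 93.6 and 25.5 CPM in the wildtype libraries and at most 4.96 CPM in the others. In bulk tissue, fewer cells of a type and less RNA per cell cannot be told apart. With the myocardial mean as a covariate the log2 fold change was 0.35 for *Clk1*, 0.30 for *Clk2* and 0.31 for *Clk4*, and 0.07 for *Srsf5*, 0.10 for *Srsf6* and 0.10 for *Srsf11*. None of the 10 was called in that fit (0, the smallest edgeR adjusted p was 0.685, for *Clk1*). The covariate itself differed with the label. It was 0.04, 0.125 and 0.67 in wildtype replicates 1, 2 and 3, and −0.32, −0.69 and 0.17 in mutant replicates 1, 2 and 3. The fit therefore takes out part of the label difference and cannot separate the myocardial signal from the label. The part of the myocardial, mesenchymal, blood and liver signals in these values was not tested.

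The targeted genes were read beside the labels. *Nos3* had 42.4 ± 9.18 CPM in wildtype and 21.5 ± 0.949 CPM in mutant libraries (SD, n = 3 each), a log2 fold change of −0.98 with an edgeR adjusted p of 0.128. *Notch1* had 82.0 ± 7.09 and 152 ± 10.9 CPM (SD, n = 3 each), higher under the label of a *Notch1*-het genotype (log2 fold change 0.89, edgeR adjusted p = 0.0313). The study lists both genes as differentially expressed. Reads per gene do not separate a targeted allele from an intact one, so these levels do not settle the genotype of a library. All directions given for the SR and CLK genes are therefore those of the library labels. Total counts ran from 34729103 to 44387490 per library, and the members had between 1070 and 10813 reads each in a library.

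Other genes of splicing were read from the same fit. The 4 other SR genes (*Srsf4*, *Srsf9*, *Srsf10*, *Srsf12*) had positive log2 fold changes with a median of 0.09, from 0.004 for *Srsf10* to 0.16 for *Srsf9*, and 0 had an unadjusted p under 0.05. Of the 6 other SR protein kinases, 3 had positive and 3 negative values, with a median of 0.03. *Clk3*, the remaining CLK kinase, had 44.7 ± 4.48 CPM in wildtype and 53.5 ± 4.38 CPM in mutant libraries (SD, n = 3 each), a log2 fold change of 0.26, and *Srpk2*, a mainly cytoplasmic SR kinase, had −0.26. The 21 SR-related proteins had a median of 0.08, with 13 positive and 4 at an unadjusted p under 0.05, all higher. *Srrm2*, a scaffold of nuclear speckles, was at the top with 416 ± 72.9 against 574 ± 45.4 CPM (SD, n = 3 each, log2 fold change 0.46), and *Rnps1* at the bottom with −0.21.

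The machinery that SR proteins recruit was read in the same way. The 32 core spliceosome genes had a median of −0.06, 10 positive and 22 negative, with 1 higher and 6 lower at an unadjusted p under 0.05. They ran from −0.64 for *Snrpf*, a Sm ring protein, to 0.37 for *Snrnp70*, the U1 protein that SR proteins contact. *Snrpf* had the lowest level of this list, 3.2 ± 0.323 CPM in wildtype and 2.05 ± 0.424 CPM in mutant libraries (SD, n = 3 each). The 22 hnRNPs, which often oppose SR proteins, had a median of −0.07, from −0.28 for *Hnrnpab* to 0.25 for *Ptbp1*. Among them 1 was higher and 2 were lower at an unadjusted p under 0.05. The 10 splicing regulators of the heart had a median of −0.16 with 8 negative, from −0.32 for *Rbm24* to 0.17 for *Mbnl1*. Here 0 were higher and 2 were lower at that level. The 14 genes of nonsense-mediated decay, which removes transcripts with poison exons, had a median of 0.03, from −0.27 for *Magoh* to 0.22 for *Smg1*. Of these, 0 were higher and 3 were lower at an unadjusted p under 0.05.

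Genes outside the SR family that are also known for kept introns, and long noncoding RNAs that stay in the nucleus, had positive values throughout. Both lists were drawn up with earlier results of these data known, so their shared direction is a description and tests nothing. All 11 retained-intron genes had positive log2 fold changes, with a median of 0.44 and 8 at an unadjusted p under 0.05. *Ccnl2*, a cyclin of nuclear speckles, had 91.7 ± 14.4 CPM in wildtype and 141 ± 9.87 CPM in mutant libraries (SD, n = 3 each, log2 fold change 0.62, edgeR adjusted p = 0.153). *Mat2a*, which keeps its last intron when methionine is plentiful, had the smallest value, 0.09. All 8 nuclear long noncoding RNAs were positive with a median of 0.64. Of the 7 averaging 1 CPM or more, they ran from 0.23 for *Rian* to 0.88 for *Neat1*, the RNA of paraspeckles (7.43 ± 1.01 against 13.7 ± 1.73 CPM, SD, n = 3 each, edgeR adjusted p = 0.128). *Miat*, named after its values were seen, was below that level (0.328 ± 0.279 against 0.707 ± 0.312 CPM, SD, n = 3 each), with overlapping groups and a log2 fold change of 1.08. With the myocardial covariate the medians were 0.21 and 0.29. No gene of any list of other splicing, retained-intron or noncoding genes was called by edgeR (0), whereas DESeq2's Wald test called 4 of these 11 and 3 of these 8, 2 of the SR-related genes (*Srrm2* and *Luc7l*, the latter named for this call) and 1 core spliceosome gene (*Snrnp70*), all higher.

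**Figure D4:**
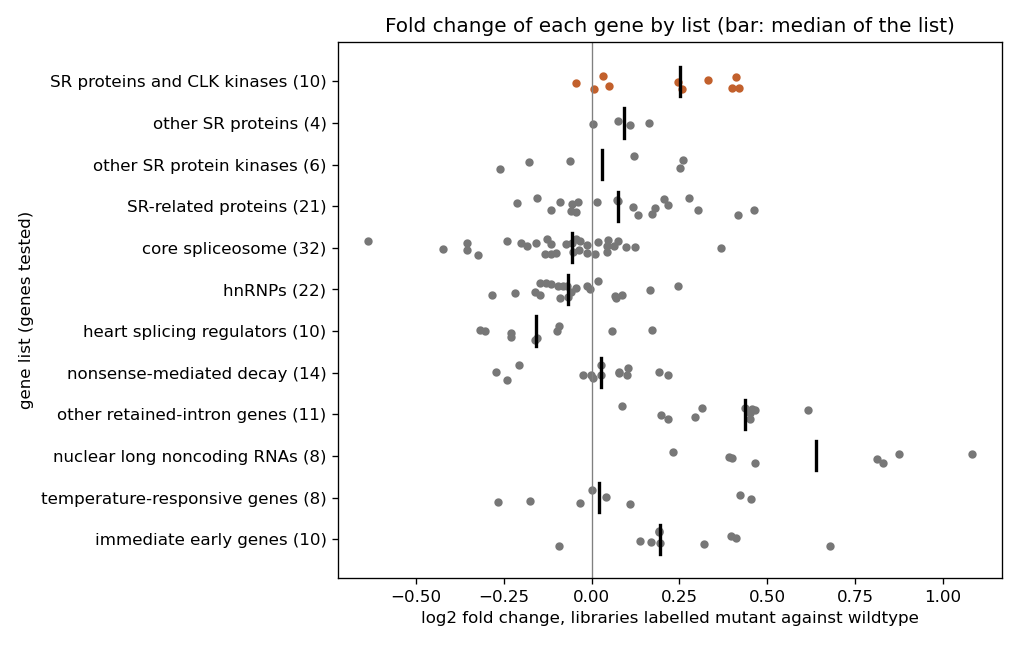
Log2 fold change of every tested gene of each list (points, number of genes in parentheses) with the median of the list as a black bar. The members (orange) have a median of 0.25, the other retained-intron genes 0.44 and the nuclear long noncoding RNAs 0.64, and the core spliceosome and hnRNP lists have medians just below 0.

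Heat shock is known to change the splicing of CLK transcripts, so temperature-responsive genes were read beside them, together with immediate early genes. The 8 temperature-responsive genes had a median of 0.02, from −0.27 for *Hsp90aa1* to 0.45 for *Hspa1a*. At an unadjusted p under 0.05, 2 of them were higher and 1 was lower. The 10 immediate early genes had a median of 0.20 with 9 positive and 3 at an unadjusted p under 0.05, from −0.09 for *Atf3* to 0.68 for *Fos*. DESeq2's Wald test called 1 immediate early gene, *Nr4a1*, as higher (adjusted p = 0.0485), and 0 temperature-responsive genes. *Nr4a1*, named for this call, had 13.9 ± 0.396 CPM in wildtype and 18.3 ± 0.696 CPM in mutant libraries (SD, n = 3 each). The part of these lists in the values of the members was not tested. By library, the mean deviation of the other retained-intron genes was 0.04, −0.23 and −0.37 in wildtype replicates 1, 2 and 3 and 0.20, 0.24 and 0.12 in mutant replicates 1, 2 and 3. The nuclear long noncoding RNAs ran from −0.64 in wildtype replicate 3 to 0.42 in mutant replicate 2, and the myocardial markers from 0.67 to −0.68 in the same libraries.

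**Figure D5:**
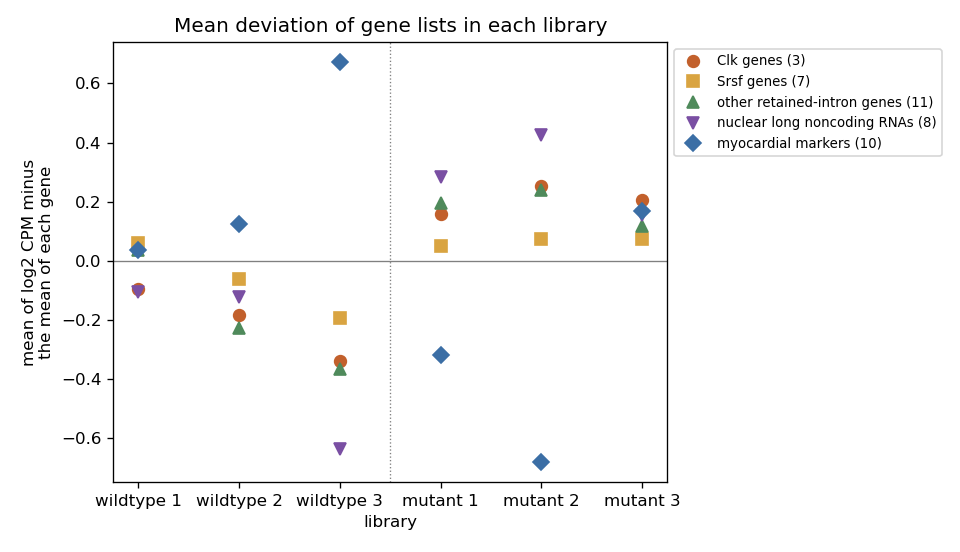
Mean over each gene list of log2 CPM minus the mean of the gene, in each of the 6 libraries (number of genes in parentheses, wildtype left of the dotted line). The *Clk* genes are below 0 in the 3 wildtype libraries and above 0 in the 3 mutant ones, and wildtype replicate 3 has the lowest value of the *Clk*, *Srsf*, retained-intron and noncoding RNA lists and the highest of the myocardial markers.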

How the data were processed

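Per the labels and the methods of the study, paired-end reads of stranded total RNA libraries were aligned to mm10 with TopHat2 2.1.0 and counted on exons with GenomicAlignments. The authors deposited whole-number counts per gene without normalization. The annotation release and counting mode are not given in the sources used here. Depth was 34729103 to 44387490 counts per library, and errors cover the spread between libraries of pooled embryos only.

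The tools were edgeR 4.0.16 (quasi-likelihood test, TMM), DESeq2 1.42.0 and limma 3.58.1 in R 4.3.3. Of 28777 genes listed, the 28157 with more than 5 reads over the 6 libraries were tested, with Benjamini-Hochberg adjustment over all of them and a threshold of 0.05. Intervals are at 95%. Alternatives were another test, scaling or filter, a replicate block, a correction for GC content and length, a myocardial covariate, and each library left out. The code was tested on simulated data. Annotation and sequences came from GENCODE M21, which lacks 54 of the identifiers.

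The members, the gene lists and the tests were chosen with earlier results of these data known. Named are the 10 members, both targeted genes, in each list other than cell type markers the genes of the largest increase and decrease with a mean of at least 1 CPM, the genes most like the members, and the pairs of members with the highest and lowest correlation. The marker lists for endothelial, VSMC, epicardial, neural crest and glia, neuronal, macrophage and endoderm cells had median log2 fold changes of −0.07, 0.46, −0.20, 0.50, 0.17, −0.02 and −0.47, the last over 2 genes tested. *Foxd3*, *Foxa2*, *Nkx2-1* and *Shh* were not tested. The library numbers of wildtype replicates 2 and 3 are swapped between sample titles and descriptions, which leaves the numbering used here, that of the titles, uncertain. Whether replicate numbers pair the libraries was checked by the correlation of same-numbered deviations from the group means, over 16655 genes. For replicates 1, 2 and 3 it was 0.096, 0.159 and 0.42 by the titles, and 0.096, −0.441 and −0.121 by the descriptions. The replicate numbers were taken as names only.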

Additional observations from a re-analysis of the deposited data

How the results depend on the processing

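Of the 10 members, 0 were called by edgeR, 3 by DESeq2's Wald test and between 0 and 6 with 1 library left out, 6 only without wildtype replicate 1. Over all genes the call counts were 6, 749 with DESeq2, 12 with the GC content and length correction, and between 1 and 2593 with 1 library left out (2593 without wildtype replicate 1, 1 to 3 without any other). The median of the members was 0.35 with scaling by library size only. That scaling moved the median of all genes from 0.01 to 0.11, a shift of 0.10. Relative to all genes, the median of the members was 0.24 in both scalings. The members' own median was 0.083 with the myocardial covariate. With 1 library left out it ran from 0.16 (without wildtype replicate 3) to 0.36 (without wildtype replicate 1).

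A replicate block on the title numbers gave 1577 called genes and 3 called members, the *Clk* genes, and with the GC content and length correction 2285 and 5. A replicate block on the description numbers gave 83 genes and 0 members. The numbers were only shared, so the block is no evidence on the size of an effect.

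*Srsf7* turned to 0.06 by library size only, 0.003 with the GC content and length correction and 0.007 with that and the replicate block, and ran from −0.075 to 0.009 with 1 library left out. *Srsf1* ran from −0.048 to 0.089 and *Srsf3* from −0.045 to 0.07. Log2 of the *Clk1* to *Clk2* ratio differed by −0.051 to 0.057, and that of *Clk4* to *Clk2* by −0.078 to 0.036. *Notch1* had 0.83 with the covariate (not called) and 0.82 to 0.94 with 1 library left out, called only without wildtype replicate 1. *Nos3* was called with DESeq2 (−0.98), with the replicate block on titles and on descriptions (−0.95 each), with the GC content and length correction (−1.10) and with both (−1.08), and without wildtype replicate 1 (−1.15), and ran from −1.15 to −0.88 with 1 library left out. The causes were not tested. The other directions of the members held under all 17 alternatives. Each member had at least 1070 reads a library.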
